A study of Mus musculus with 2 samples.

Results

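Microglia that carried transcripts of disease-associated genes were selected cell by cell from 2 single-cell libraries of mouse brain. Barcodes with fewer than 200 genes, or with more than 10% of UMIs from mitochondrial genes, were left out, a UMI being the random tag that marks each captured transcript. A cell was taken as a microglial cell when *P2ry12*, *Gpr34*, *Tmem119*, *Siglech*, *Fcrls* and *Olfml3* together made up at least 0.5% of its UMIs and the neutrophil genes *S100a8* and *S100a9* under 1%. It was called marker-positive when at least 2 of the 5 genes *Cst7*, *Lpl*, *Spp1*, *Itgax* and *Gpnmb* had a UMI. This held for 78 of 14849 cells, 68 of 6180 microglia in the *Disc1* WT/WT library and 10 of 1950 in the *Disc1* LI/LI library. The comparison was with 5646 and 1793 marker-negative microglia, which met the same limits and had no UMI of these genes. A further 466 and 147 microglia had 1 of the genes (single-marker).

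The mice were male littermates of 23 weeks that were either wild type (*Disc1* WT/WT) or homozygous for the locus impairment allele of *Disc1* (*Disc1* LI/LI). Brains of 6 mice were pooled per genotype and dissociated with actinomycin D, an inhibitor of transcription (Act-Seq), and CD45low CD11b+ cells were sorted, a gate that takes in microglia. The allele is carried by every cell of the animal, so the microglia of the mutant are not the only cells affected. With 1 library per genotype, no test between genotypes was possible and none was made, differences between mice are unknown, and all intervals are 95% exact intervals that cover counting error only. Over all barcodes, *Disc1* had 642 UMIs in the *Disc1* WT/WT library, or 19.1 UMIs per 1000000 UMIs (CPM), and 22 in the *Disc1* LI/LI library, or 0.461 CPM. The marker-positive microglia held 10 and 0 of these UMIs. Marker-negative microglia held 542 and 17 of them, or 20.8 and 2.31 CPM of that class. Of the barcodes, 12 occurred in both libraries, and none of them belonged to a marker-positive cell. The libraries also differed in what else they held, since microglia within the limits made up 87.9% of the filtered cells of the *Disc1* WT/WT library but 24.9% of those of the *Disc1* LI/LI library. In marker-negative microglia, *S100a8* had 13.7 CPM in the former and 318 CPM in the latter.

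Microglia are the resident macrophages of the brain parenchyma. Around amyloid deposits, dying neurons or damaged myelin, some of them lower the transcripts of the resting program, such as *P2ry12* and *Cx3cr1*, and raise genes of lysosomes, lipid handling and phagocytosis. This disease-associated program is described in stages, a first that does not need the receptor TREM2 and a second that does. The 5 marker genes belong to its later part. *Cst7* encodes cystatin F, an inhibitor of lysosomal cathepsins, and *Lpl* encodes lipoprotein lipase, which releases fatty acids from lipoproteins. *Itgax* encodes CD11c, the alpha chain of an integrin, *Spp1* encodes the secreted phosphoprotein osteopontin, and *Gpnmb* encodes a transmembrane glycoprotein of endosomes and lysosomes.

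The promoters of these markers are shown because the markers chose the cells and did not occur in them at equal rates. Sequences are those of RefSeq on GRCm38.p6, from 250 bases before to 50 bases after the start of the gene, on the plus strand, and 4 of the 5 markers had an entry, all but *Lpl*. Both strands were searched for the E-box CACGTG, the PU.1 motif GAGGAAGT and the AP-1 motif TGANTCA, which do not overlap one another here, and matches are in capitals. The region is chr2:150570165-150570464 for *Cst7*, chr5:104434861-104435160 for *Spp1*, chr7:128129300-128129599 for *Itgax* and chr6:49036268-49036567 for *Gpnmb*.
Cst7: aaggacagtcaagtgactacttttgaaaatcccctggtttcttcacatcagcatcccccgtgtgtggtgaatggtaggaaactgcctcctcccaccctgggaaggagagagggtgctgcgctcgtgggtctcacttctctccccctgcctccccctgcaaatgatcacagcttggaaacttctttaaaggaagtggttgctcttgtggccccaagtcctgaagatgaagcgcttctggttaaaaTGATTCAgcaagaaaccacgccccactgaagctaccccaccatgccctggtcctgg
Spp1: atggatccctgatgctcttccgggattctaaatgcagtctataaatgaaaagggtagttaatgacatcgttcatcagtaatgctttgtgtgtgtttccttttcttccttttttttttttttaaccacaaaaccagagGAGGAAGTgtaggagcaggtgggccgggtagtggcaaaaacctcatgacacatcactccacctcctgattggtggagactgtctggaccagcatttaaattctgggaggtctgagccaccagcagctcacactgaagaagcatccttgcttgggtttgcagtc
Itgax: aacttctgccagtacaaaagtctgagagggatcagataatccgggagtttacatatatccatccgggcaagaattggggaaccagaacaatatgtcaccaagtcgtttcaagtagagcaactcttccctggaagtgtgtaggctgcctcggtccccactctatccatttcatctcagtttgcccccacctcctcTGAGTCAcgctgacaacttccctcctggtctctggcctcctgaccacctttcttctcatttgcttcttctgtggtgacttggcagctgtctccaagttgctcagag
Gpnmb: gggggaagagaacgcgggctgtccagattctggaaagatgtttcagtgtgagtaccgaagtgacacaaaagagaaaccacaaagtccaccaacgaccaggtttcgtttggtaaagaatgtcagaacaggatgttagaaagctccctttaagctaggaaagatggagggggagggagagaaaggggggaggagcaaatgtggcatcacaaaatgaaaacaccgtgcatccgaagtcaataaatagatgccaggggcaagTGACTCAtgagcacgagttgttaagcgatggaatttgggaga
A match to TGANTCA lay 6 bases before the start in *Cst7*, 56 bases before it in *Itgax* and at base 9 of the transcript in *Gpnmb*. The match to GAGGAAGT in *Spp1* lay 113 bases before the start, and a second *Spp1* start listed by RefSeq, not shown, had no match. Of 32851 mouse promoters of this length, 7.81% held TGANTCA, 3.20% GAGGAAGT and 7.15% CACGTG. These matches describe the letters of the windows and say nothing about binding in these cells.

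The marker-positive microglia were for the most part cells with a few marker UMIs, not cells with high marker expression. In *Disc1* WT/WT, 56 had 2 of the 5 genes, 10 had 3, 2 had 4 and none had all 5, and all 10 *Disc1* LI/LI cells had 2. The lowest possible number, 2 marker UMIs in all, was found in 24 of the 68 *Disc1* WT/WT cells, as it was in 6 of the 10 cells of *Disc1* LI/LI. The median was 3 and 2 marker UMIs, and the highest cell had 174 and 3. These values follow from the selection and are given as a description.

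*Cst7* was the marker present in most of the cells. It had a UMI in 50 of 68 *Disc1* WT/WT cells, with 100 UMIs in all and 1 UMI in 32 of the cells, and in 9 of 10 *Disc1* LI/LI cells, with 10 UMIs. *Lpl* was found in 41 cells with 105 UMIs and in 4 cells with 4 UMIs. *Itgax* was found in 40 cells with 61 UMIs and in 3 cells with 3 UMIs. *Spp1* behaved differently from these, with few positive cells and nearly all of its UMIs in a pair of them. It was found in 18 *Disc1* WT/WT cells with 313 UMIs, of which 286 (91.4%) came from 2 cells with 154 and 132 UMIs, and in 4 *Disc1* LI/LI cells with 7 UMIs. These 2 cells were also among the deepest, with 21443 and 17961 UMIs, and were the only ones with 4 marker genes. *Gpnmb* was close to absent, with 1 UMI among the *Disc1* WT/WT cells and none among those of *Disc1* LI/LI. The combinations *Cst7* with *Itgax*, *Cst7* with *Lpl* and *Lpl* with *Itgax* occurred in 28, 25 and 16 *Disc1* WT/WT cells. The name disease-associated microglia is thus only weakly met by these markers, and the cells are called by their selection rule here.

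**Figure D1:**
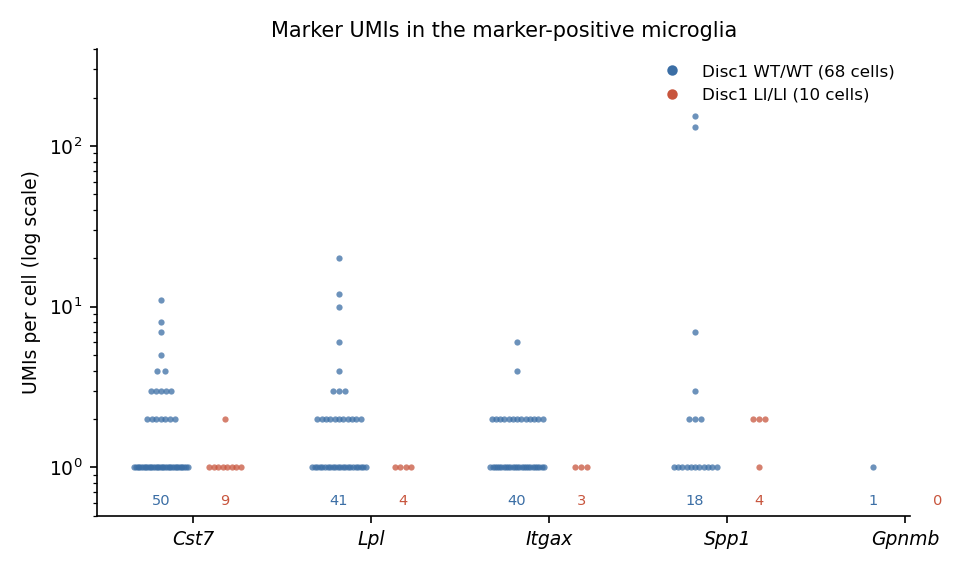
UMIs of each marker gene per marker-positive cell, on a log scale, with 1 point per cell that has the gene and the number of such cells below (*Disc1* WT/WT in blue, 68 cells; *Disc1* LI/LI in red, 10 cells). Most points lie at 1 UMI, and the 2 *Disc1* WT/WT cells with 154 and 132 *Spp1* UMIs stand apart.

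Marker-positive microglia made up 1.10% (0.855 to 1.39) of the microglia in *Disc1* WT/WT, against 0.513% (0.246 to 0.941) in *Disc1* LI/LI. The single-marker share was 7.54% in both libraries. Depth differed between the classes and the libraries. The median marker-positive cell had 6943.5 UMIs in *Disc1* WT/WT, against 4214 in marker-negative microglia, and 3831 in *Disc1* LI/LI, against 3749. With every cell thinned to 3000 UMIs, which left out 942 and 455 shallower cells, 24 of 5238 (0.458%, 0.294 to 0.681) and 4 of 1495 (0.268%, 0.0729 to 0.684) microglia were marker-positive. At equal depth the intervals of both libraries overlapped over most of their length and the *Disc1* LI/LI value rests on 4 cells. At 1000 UMIs only 2 *Disc1* WT/WT cells and no *Disc1* LI/LI cell remained, and 3 cells of 1933, the limit taken for a count of 0, would be a share of 0.155%.

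The marker genes were also found in cells outside the microglia. Among cells past the neutrophil limit and under the microglia limit, 1 of 107 in *Disc1* WT/WT (0.935%, 0.0237 to 5.10) and 22 of 3607 in *Disc1* LI/LI (0.610%, 0.383 to 0.922) had at least 2 of the 5 genes, at median depths of 4235 and 4128 UMIs, against 4271 and 3787.5 in microglia. The *Disc1* LI/LI share of microglia was not above that of these neutrophil-gated cells. It was higher in other cells under the microglia limit, at 3.99% and 9.21% of cells with at least 3 genes of border-associated macrophages, 6.74% and 3.47% of cells with at least 3 monocyte genes, and 4.76% and 5.11% of cells with at least 3 T or NK cell genes. Their median depths were 3800 and 4689, 6565 and 7072.5, and 4121 and 3961 UMIs. The cells with monocyte genes were thus deeper than microglia, and these shares were not matched for depth. For *Spp1*, a UMI was found in 0.583% and 0.615% of microglia against 4.67% and 5.52% of these neutrophil-gated cells, so the share of microglia with a UMI is not read as expression. In *Disc1* WT/WT 7 marker-positive cells had at least 2 *Spp1* UMIs. Of the 36 microglia with *Spp1* in that library, 25% also had *Itgax*, against 1.71% of those without *Spp1*. In *Disc1* LI/LI the values were 0% of 12 microglia with *Spp1* and 1.24% of those without. Both genes are markers of the selection, and these values were not matched for depth, so they do not decide whether *Spp1* was expressed. The part of free RNA in these values was not tested. For *Cst7*, *Lpl* and *Itgax*, unlike *Spp1*, the share of cells with a UMI was higher in microglia than in the neutrophil-gated cells. *Cst7* was found in 4.56% and 5.33% of microglia against 1.87% and 2.63%, *Lpl* in 2.96% and 1.38% against 0% and 0.693%, and *Itgax* in 1.84% and 1.23% against 0% and 0.554%. By level the order for *Cst7* in *Disc1* LI/LI was reversed, with 17.3 CPM in microglia and 30.4 CPM in the neutrophil-gated cells, where 95 cells held 658 UMIs. *Gpnmb* was found in none of the *Disc1* LI/LI microglia and in 0.0277% of the neutrophil-gated cells.

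**Figure D2:**
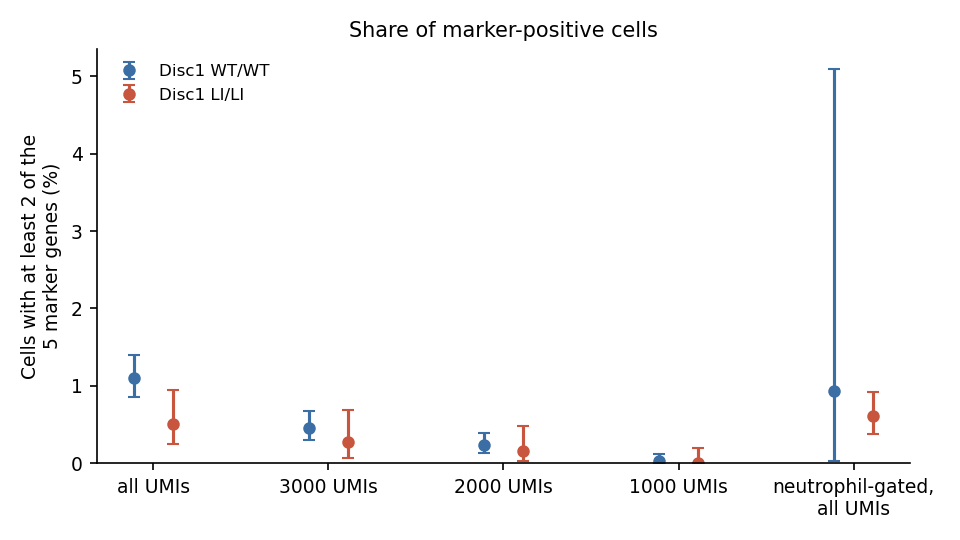
Percentage of cells with at least 2 of the 5 marker genes, for microglia at full depth and thinned to 3000, 2000 and 1000 UMIs and for neutrophil-gated cells at full depth, with 95% exact binomial intervals (counting error only) for *Disc1* WT/WT (blue) and *Disc1* LI/LI (red). The share of microglia falls from 1.10% to 0.0329% in *Disc1* WT/WT, and likewise from 0.513% to 0 in *Disc1* LI/LI as cells are thinned.

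The microglia limit ran through a range without a gap. Just inside it, at 0.5 to under 0.6% microglia transcripts, 6 of 181 cells from *Disc1* WT/WT, as well as 2 of 88 from *Disc1* LI/LI, were marker-positive. Just outside, at 0.4 to under 0.5%, 5 of 112 and 2 of 76 cells had at least 2 marker genes. Past the neutrophil limit but within the microglia limit, 0 of 12 and 3 of 61 cells did.

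Of the genes assigned to the disease-associated program but not used in the selection, most had a ratio of marker-positive over marker-negative microglia above 0, but only 2 were called by the rule of size given below, and 5 stage 2 genes had no UMI in the *Disc1* LI/LI cells. UMIs were summed over the cells of a class, and levels are given as CPM, with the log2 ratio of marker-positive over marker-negative. As background, of 3190 genes outside the rule with a mean of at least 50 CPM over the 4 classes, 39.7% had a ratio above 0 in *Disc1* WT/WT, as did 48.2% in *Disc1* LI/LI, with medians of -0.08 and -0.02. Scaling by the TMM factors of edgeR in place of total UMIs moved every ratio by -0.03 in *Disc1* WT/WT and by -0.24 in the *Disc1* LI/LI library, after which 35.6% and 33.8% of the genes lay above 0. Counts that differ under this scaling are given with it. Of the stage 1 genes, which are independent of TREM2, all 9 were above 0 in both libraries, with a median of 0.69 in *Disc1* WT/WT, against 0.57 in *Disc1* LI/LI. Of the stage 2 genes, 11 reached 50 CPM and all 11 were above 0 in both, with medians of 0.62 and 0.79, or 10 of 11 in *Disc1* LI/LI under TMM scaling, where *Serpine2* had -0.05. Since the lists were chosen with earlier results of these data known, these counts are a description.

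*Ctsb*, a lysosomal cysteine protease of stage 1, had 3562 CPM in marker-positive and 1824 in marker-negative microglia of *Disc1* WT/WT, a log2 ratio of 0.97 (0.90 to 1.03). In *Disc1* LI/LI it had 2853 and 1692 CPM, a log2 ratio of 0.75 (0.49 to 1.01). Its UMIs were spread over the cells, and the 3 highest *Disc1* WT/WT cells held 13.7% of them. *Fth1*, the heavy chain of the iron store ferritin, had 5648 against 3501 CPM (0.69, 0.64 to 0.74) and 5637 against 4339 (0.38, 0.19 to 0.56). *Ctsd*, an aspartic protease of lysosomes, had ratios of 0.53 and 0.57, and *Tyrobp*, the adaptor of TREM2, 0.26 in both libraries. The size of the difference in *Apoe*, the main lipoprotein component made by glia, was not alike in the libraries. *Apoe* had 2801 against 699.8 CPM in *Disc1* WT/WT (2.00, 1.93 to 2.08) and 974 against 511 CPM in *Disc1* LI/LI (0.93, 0.46 to 1.37), where 15 of its 42 UMIs came from 1 cell. The *Disc1* WT/WT ratio was 1.38 against comparison cells weighted to the same depths, 1.18 in cells with at least 3 marker genes and 3.17 without cells that had 2 genes of another cell type's list. The *Disc1* LI/LI ratio was -0.13 without *Spp1* as a marker, which left 6 cells, and 0.43 without the top cell.

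Of the stage 2 genes, the tetraspanins *Cd63* and *Cd9* had similar ratios in both libraries. *Cd63* had 1161 against 445 CPM in *Disc1* WT/WT (1.38) and 1229.5 against 456 CPM in *Disc1* LI/LI (1.43, 1.01 to 1.82). *Cd9* had ratios of 0.83 and 0.92, *Ctsz*, another cathepsin, 0.62 and 0.79, and *Cd68*, a lysosomal membrane protein of macrophages, 0.57 and 0.69. *Trem2* itself had 2707 against 2402 CPM (0.17, 0.10 to 0.25) and 4825 against 2967 CPM (0.70, 0.50 to 0.90). The genes of stage 2 that are low in resting microglia rested on few UMIs. In *Disc1* WT/WT, the lectin gene *Lgals3* had 35 UMIs in 12 marker-positive cells, 19 of them in 1 cell, with a ratio of 4.30, and the receptor gene *Axl* had 15 UMIs in 12 cells, with a ratio of 3.45. In *Disc1* LI/LI, *Axl*, *Lgals3*, *Igf1*, *Ch25h* and *Lilrb4a* had no UMI among the 43106 of the 10 cells, which is too few to show such levels.

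**Figure D3:**
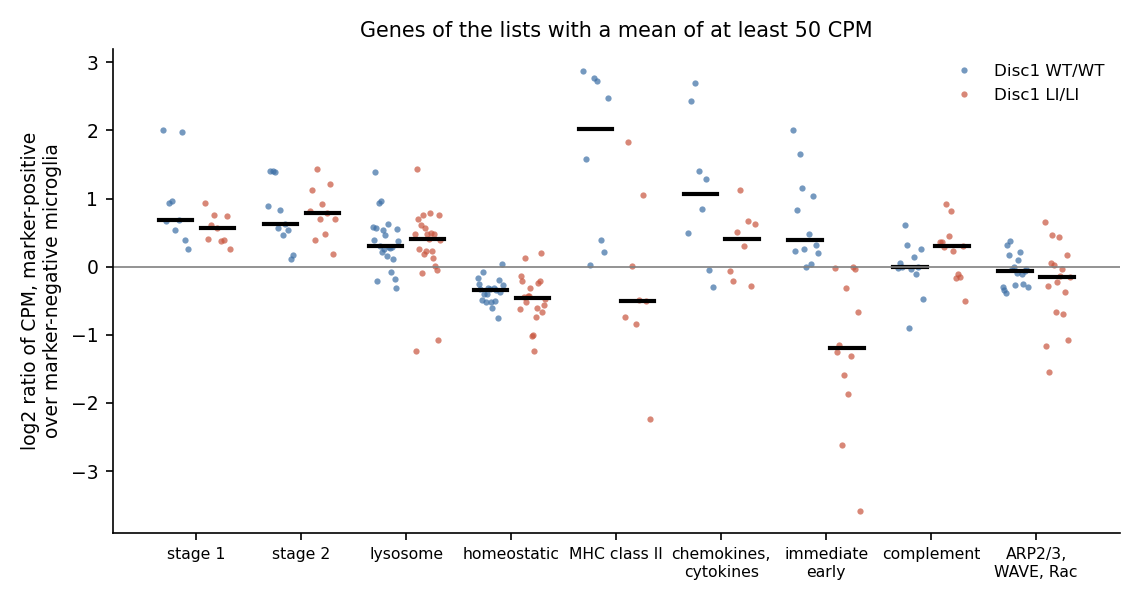
Log2 ratio of CPM, marker-positive over marker-negative microglia, for genes with a mean of at least 50 CPM in 9 gene lists, with 1 point per gene and a black line at the median (*Disc1* WT/WT in blue, *Disc1* LI/LI in red; *H2-Aa*, with 0 UMIs in *Disc1* LI/LI, is drawn at its upper bound). All stage 1 and stage 2 genes lie above 0 in both libraries, except *Serpine2* in *Disc1* LI/LI under TMM scaling, and most homeostatic genes lie below 0. The MHC class II presentation list, which includes *Cd83* and *Cd86*, and the immediate early genes lie apart in the libraries.

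With a log2 ratio of at least 1 in both libraries, 8 of the 3190 genes (0.251%) were called higher, and with -1 or less 1 gene (0.0313%) was called lower. This is a rule of size and not a test, and under TMM scaling the calls of *Fxyd5* and *Ccl6* were lost, leaving 6. Of the stage 1 list none was called, and of the stage 2 list 2 were, *Cd63* and *Ccl6*. The genes called higher were *Cdkn1a*, *Fxyd5*, *Cd83*, *Ccl6*, *Cd63*, *Ly9*, *Pld3* and *Sdc4*. *Pld3*, a lysosomal member of the phospholipase D family, had 165 against 71.9 CPM (1.19) in *Disc1* WT/WT and 209 against 85 CPM (1.30) in *Disc1* LI/LI. *Cd83*, a surface protein of activated antigen-presenting cells, had 212 against 71.2 CPM (1.58) and 278 against 78.7 CPM (1.82), with 7 of the 12 *Disc1* LI/LI UMIs in 1 cell. The chemokine gene *Ccl6* had 324 against 123 CPM (1.40) and 371 against 169.7 CPM (1.13), with 9 of 16 *Disc1* LI/LI UMIs in 1 cell.

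The remaining calls rested on less. *Cdkn1a*, *Fxyd5*, *Ly9* and *Sdc4* had under 50 CPM in marker-negative microglia of both libraries, between 15.6 and 44.3 CPM, and so reached the mean of 50 CPM only through the marker-positive cells, in which they are called higher. *Cdkn1a*, which encodes the cyclin-dependent kinase inhibitor p21, had ratios of 2.34 and 3.38, but all 12 of its *Disc1* LI/LI UMIs came from 1 cell. *Fxyd5*, a regulator of the sodium pump, had 2.59 and 1.07 with 4 *Disc1* LI/LI UMIs, *Ly9*, a receptor of the SLAM family, 1.38 and 2.20 with 5, and *Sdc4*, a heparan sulfate proteoglycan, 1.08 and 2.38 with 6. *Tmem135*, the only gene called lower, had 29 and 1 UMIs and ratios of -1.07 and -1.62. When each gene was computed without the cell that had most of its UMIs, none of the 3190 genes was called higher, and *Cd63* had a ratio of 0.96 in *Disc1* LI/LI. Under other alternatives single calls were also lost. *Cd63* had 0.55 in *Disc1* LI/LI with at least 1% microglia transcripts and kept a ratio of at least 1 in both libraries in 18 of the 20 alternatives that gave both values. *Pld3* had 0.75 in *Disc1* LI/LI without *Itgax* as a marker (15 of 19), *Ccl6* 0.07 without *Itgax* (13 of 20) and *Cd83* 0.24 without *Spp1* (17 of 19). Next below the calls lay *Apoe*, the metallothionein gene *Mt1* (0.99 and 2.01), the cytokine gene *Mif* (0.87 and 1.28), *Pdgfa*, *AU020206*, *Aplp2* and *Selenow*. At the low end with *Tmem135* were *Cpsf6*, *Ddit4*, *Fam133b*, *Filip1l*, *Ndufa9*, *Nfia*, *Odr4*, *Sbf2* and *Tmem170b*, each with at most 2 *Disc1* LI/LI UMIs.

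**Figure D4:**
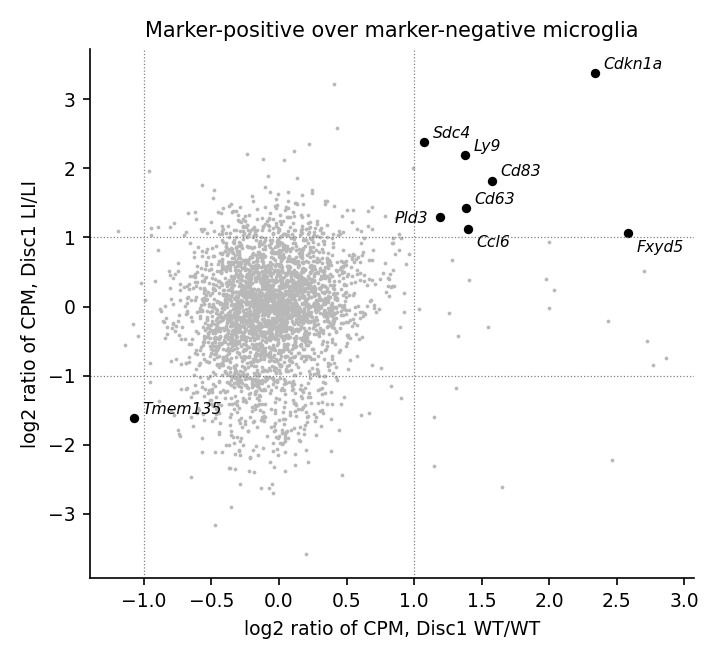
Log2 ratio of CPM, marker-positive over marker-negative microglia, in *Disc1* WT/WT (x axis) and *Disc1* LI/LI (y axis) for the genes with a mean of at least 50 CPM, with the 9 called genes in black and dotted lines at 1 and -1. *Cd63* and *Pld3* have ratios of 1.38 and 1.19 in *Disc1* WT/WT, against 1.43 and 1.30 in the other library, and the spread along the *Disc1* LI/LI axis is that of 10 cells.

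The gene lists overlap, so their counts are not separate results. Of the stage 1 and stage 2 genes, for example, *Cd63* is also in the lysosome list and *Apoe* in the lipid list. *Ccl6* is also in the chemokine list, and *Trem2* and *Tyrobp* are in the signalling list. Genes of lysosomes, where engulfed material is degraded, were mostly higher in marker-positive microglia. In each library 19 of 23 lay above 0, with medians of 0.31 and 0.41, although under TMM scaling 14 of 23 did in *Disc1* LI/LI. Of the 23, *Atp6v1a* reached the mean of 50 CPM only through the *Disc1* WT/WT marker-positive cells. The protease gene *Ctsl* had 1992 against 1443 CPM (0.47) and 2204 against 1581 CPM (0.48), and the membrane protein gene *Lamp1* had ratios of 0.29 and 0.48. The most abundant gene, *Cst3*, which encodes the protease inhibitor cystatin C, had ratios of -0.21 and 0.26, so the summed level of the list differed little in *Disc1* WT/WT (-0.01, against 0.30 in *Disc1* LI/LI). Of the lipid and cholesterol genes, 6 of 8 and 4 of 8 lay above 0. The cholesterol transporter gene *Npc2* had 1465 against 1002 CPM (0.55) and 1739.9 against 1032 CPM (0.75). Of the TREM2 and TYROBP signalling genes, 2 of 12 and 7 of 12 lay above 0 (5 of 12 in *Disc1* LI/LI under TMM scaling), with the transcription factor gene *Spi1* at -0.24 and 0.55. The receptor and its adaptor were the 2 genes above 0 in *Disc1* WT/WT.

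The genes of the resting microglial program were mostly lower. Of 20 homeostatic genes outside the rule, 1 lay above 0 in *Disc1* WT/WT, against 2 in *Disc1* LI/LI, with medians of -0.34 and -0.46, and none was called. Under TMM scaling all 20 lay below 0 in *Disc1* LI/LI. *Selplg*, which encodes a selectin ligand, had 1283 against 1823 CPM (-0.51) and 1369 against 2088 CPM (-0.61). The small GTPase gene *Rhob* had 977 against 1491 CPM (-0.61) and 510.4 against 1205 CPM (-1.24). Differences were smaller for the fractalkine receptor gene *Cx3cr1* (-0.32 and -0.21) and the CSF1 receptor gene *Csf1r* (-0.25 and -0.13). *Malat1*, a nuclear RNA, made up a median of 2.17% of UMIs in marker-positive and 3.02% in marker-negative cells of *Disc1* WT/WT, and 2.31% and 3.00% in *Disc1* LI/LI. Its part in these ratios was not tested. The 6 genes of the microglia limit were used by the selection and are given as a description only. *P2ry12* had 2353 CPM in marker-positive, 3493 in single-marker and 4041 in marker-negative microglia of *Disc1* WT/WT, and 2366, 2535 and 3176 CPM in *Disc1* LI/LI. *Olfml3* had 1833 against 1819 CPM in the marker-positive and marker-negative cells of *Disc1* LI/LI, *Fcrls* 1717 against 1781 and *Gpr34* 1879 against 1936.

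Within *Disc1* WT/WT, with its 68 cells, the rule of size alone called 30 of 3347 genes higher (0.896%) and 4 lower (0.12%). Of the 30, 11 had under 50 CPM in marker-negative microglia and reached the mean of 50 CPM only through the marker-positive cells, among them *Il1b* and *Top2a*, and 3 of the 4 reached it only through the marker-negative cells, so these counts are a description. Several of the 30 were high in a few cells only. The MHC class II genes *Cd74*, *H2-Aa*, *H2-Ab1* and *H2-Eb1*, which encode the invariant chain and the peptide-presenting chains, had ratios of 2.87, 2.77, 2.73 and 2.47, or 2.14, 2.03, 2.12 and 1.73 against comparison cells weighted to the same depths. In the 12 cells with at least 3 marker genes, the last 3 lay below 0, at -1.58, -0.92 and -2.21, and *Cd74* had 0.39. Without *Lpl* as a marker, which left 36 cells, the same 3 genes also lay below 0. Of the 863 *Cd74* UMIs, 669 (77.5%) came from 3 cells with 277, 247 and 145 UMIs, and the median cell had 1. These 3 cells had 2, 12 and 6 UMIs of the border macrophage gene *Mrc1*, 1, 39 and 0 of *Pf4* and 3, 2 and 1 of *Ms4a7*, and 6, 0 and 3 UMIs of the monocyte gene *Ccr2*, with 29, 30 and 13 UMIs of *P2ry12*. They are the only 3 of the 68 cells with at least 2 of the macrophage genes counted below, and the part of macrophage transcripts in the MHC class II ratios was not tested. The chemokine gene *Ccl4* had 337 UMIs, 66.5% of them in 3 cells, and *Ccl3* had 188 UMIs, 41.5% of them in 3 cells. *Il1b*, which encodes interleukin-1 beta, had 72 UMIs, of which 38 and 30 lay in 2 cells, and its ratio of 3.55 became -0.13 without cells with 2 macrophage genes or 10 *Cd74* UMIs. *Top2a*, a topoisomerase gene of dividing cells, had 58 UMIs in 5 cells, with 96.6% in 3 of them, and the proliferation marker gene *Mki67*, which did not reach the mean of 50 CPM, had 49 UMIs in 4 cells. *Lyz2*, a lysozyme gene of macrophages, was found in 64 cells, but 304 of its 897 UMIs came from 1. *Apoe* was less concentrated, with UMIs in 53 cells and 29.2% in the top 3.

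Counted per cell, 9 of the 68 cells (13.2%) had at least 10 *Cd74* UMIs, 13 (19.1%) at least 50 *Apoe* UMIs, 17 (25%) at least 5 *Ccl3* or *Ccl4* UMIs and 3 (4.41%) at least 5 *Top2a* or *Mki67* UMIs. In marker-negative microglia weighted to the same depths, these shares were 3.10%, 4.87%, 6.81% and 0.111%. None of these 4 features was present in 36 of the 68 cells (52.9%), exactly 1 in 23 and more than 1 in 9. In *Disc1* LI/LI, 1 of 10 cells had at least 5 *Ccl3* or *Ccl4* UMIs and none had any of the other features. In marker-negative microglia of that library weighted to the same depths, the shares were 2.92%, 1.34%, 4.97% and 0.126%, in the order above. At such shares 10 cells are too few to show whether a feature is absent.

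**Figure D5:**
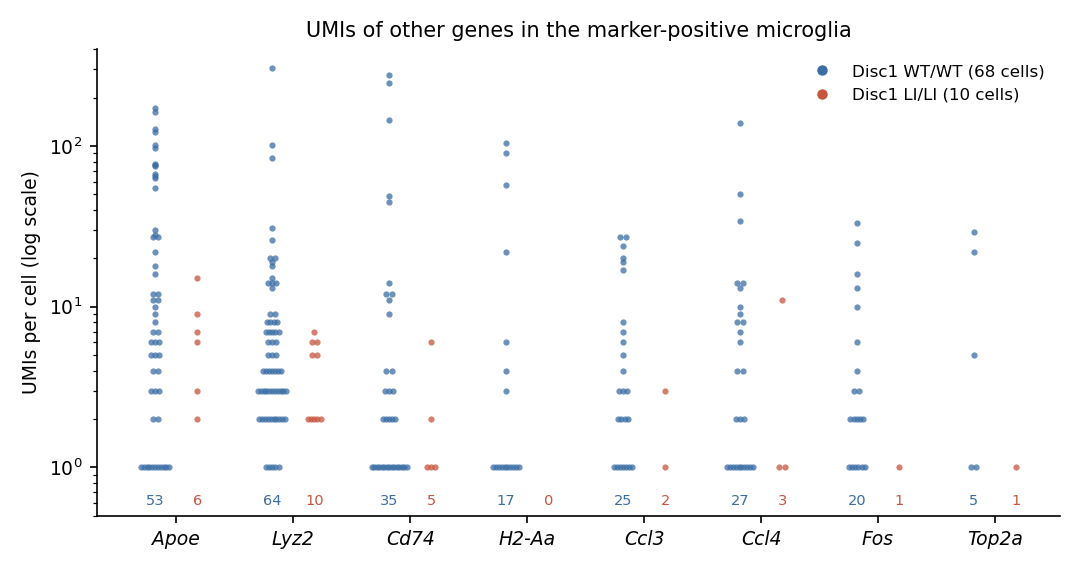
UMIs per marker-positive cell, on a log scale, of 8 genes that were not used in the selection, with 1 point per cell that has the gene and the number of such cells below (*Disc1* WT/WT in blue, *Disc1* LI/LI in red). *Cd74*, *H2-Aa* and *Top2a* reach high values in a few *Disc1* WT/WT cells, while *Apoe* is spread over 53 of them.

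The lists built around these genes differed between the libraries. The MHC class II presentation list also holds *Cd83* and *Cd86*, which are not themselves MHC class II genes. All 8 of its genes that reached 50 CPM lay above 0 in *Disc1* WT/WT (median 2.02), or 7 under TMM scaling. In *Disc1* LI/LI, where *H2-Aa* had no UMI, 3 of 8 did (median -0.50), or 2 under TMM scaling. *Cd83* (1.82) and *Cd86* (0.01) were among these 3. Of 8 chemokine and cytokine genes, 6 and 5 lay above 0, with medians of 1.07 and 0.41. Of 12 immediate early genes, the genes that respond first to stimulation and to dissociation, 11 lay above 0 in *Disc1* WT/WT (median 0.40), but none in *Disc1* LI/LI (median -1.20). *Jun* had 718 against 720.1 CPM (-0.00) and 209 against 763 CPM (-1.87), the last from 9 UMIs. *Fos* had 228 against 72.7 CPM (1.65), with 57.4% of its 129 UMIs in 3 cells, and 1 UMI in *Disc1* LI/LI. Of 4 interferon-response genes, all lay above 0 in *Disc1* WT/WT, against 1 in *Disc1* LI/LI (none under TMM scaling), with *Ifitm3* at 1.15 and -2.31, the latter from 1 UMI. Without *Lpl* as a marker *Ifitm3* had -1.60 in *Disc1* WT/WT. Of these genes *Ifi27l2a*, with 86.7 against 29.7 CPM in *Disc1* WT/WT and 46.4 against 57.2 in *Disc1* LI/LI, reached the mean of 50 CPM only through the *Disc1* WT/WT marker-positive cells, as did *Atf3* and *Ier2* of the immediate early genes, so they had to lie above 0 there. The 2 cell cycle genes at this level, *H2afz* and *Stmn1*, had ratios of 0.51 and 2.04 in *Disc1* WT/WT and -0.42 and 0.23 in *Disc1* LI/LI, where *Stmn1* had -0.00 under TMM scaling. Over the 16 genes of the list with at least 10 UMIs, the *Disc1* WT/WT median was 4.54 and all 16 lay above 0. The medians of the genes' lower and upper limits were 3.49 and 5.48, which is not an interval of the median. In that library 3 cells held 96.6% of the *Top2a* and 98.0% of the *Mki67* UMIs. In *Disc1* LI/LI 2 of 4 such genes lay above 0 (median -0.09). The *Disc1* WT/WT ratio of *Stmn1* was -0.98 with cells thinned to 3000 UMIs, and that of *H2afz* was -0.49 without cells with 2 genes of another list. Whether these differences between libraries are larger than those between mice could not be tested.

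Genes of other functions were compared in the same way. All 12 glycolysis genes lay above 0 in *Disc1* WT/WT (median 0.20), as did 8 of 12 in *Disc1* LI/LI (0.43, or 7 of 12 under TMM scaling), with the pyruvate kinase gene *Pkm* at 0.86 and 0.77. Of 10 MHC class I genes, 6 and 8 lay above 0 (5 and 6 under TMM scaling), with *B2m*, their shared light chain, at 0.66 and 0.41. Of 12 complement genes, 5 and 8 did (5 and 7 under TMM scaling, medians -0.01 and 0.30 without it), and the C1q chains *C1qa*, *C1qb* and *C1qc* had ratios of -0.02, 0.06 and -0.00 in *Disc1* WT/WT and 0.36, 0.36 and 0.29 in *Disc1* LI/LI. The tetraspanin gene *Cd81* had -0.04 and 0.22 (-0.01 in *Disc1* LI/LI under TMM scaling), and the C5a receptor gene *C5ar2* -0.90 and 0.82, with 18 and 5 UMIs. Of 17 genes of the ARP2/3 and WAVE complexes and Rac, which drive branched actin, 5 and 6 lay above 0 (5 and 3 under TMM scaling), with medians of -0.07 and -0.15. *Actr2* had ratios of -0.39 and -0.29, *Arpc2* -0.03 and 0.02 (-0.21 in *Disc1* LI/LI under TMM scaling), and *Cyfip1*, a WAVE subunit gene, -0.11 and -0.69. *Actr3* had 382 against 305 CPM (0.33) and 92.8 against 269.9 CPM (-1.54, from 4 UMIs). Of 5 formin-related genes 1 lay above 0 in each library, with *Diaph2* at -0.47 and -0.25, and of 6 integrin genes 2 did, with *Itgb2* at 0.26 and 0.30. Under TMM scaling, *Rhoa* and *Itgb5*, near 0 in *Disc1* WT/WT, lay below it.

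Markers of other cell types were counted in the marker-positive microglia as a whole. T and NK cell markers, of interest since *Cst7* is also a gene of cytotoxic lymphocytes and was found in 39.7% and 42.3% of T and NK marker-bearing cells, had 0 UMIs over all 12 genes in both libraries. Monocyte markers had 19 and 10 UMIs over 12 genes, with *Ly6c2*, *Vcan* and *Fn1* at 0 in *Disc1* WT/WT and 12 UMIs of *Ccr2* as the most abundant. Their summed level was 33.6 against 20.5 CPM in marker-negative microglia of *Disc1* WT/WT, a log2 ratio of 0.71 (-0.03 to 1.37), and 232 against 218 CPM in *Disc1* LI/LI. For *Ccr2* it was 21.2 against 5.61 CPM in *Disc1* WT/WT, a log2 ratio of 1.92 (0.93 to 2.77), with 6 of the 12 UMIs in 1 cell. Without cells with 2 macrophage genes or 10 *Cd74* UMIs, the *Ccr2* ratio was -0.195. Border-associated macrophage markers had 196 and 4 UMIs, of which *Stab1*, also expressed by microglia here, had 62 and 3, with *Lyve1* and *Cd209f* at 0. Of the 41 *Pf4* UMIs, 39 came from 1 *Disc1* WT/WT cell. At 347 and 92.8 CPM, the summed level of these macrophage markers compared with 326 and 212 CPM in marker-negative microglia. At least 2 of *Mrc1*, *Pf4*, *Ms4a7*, *Cd163*, *Lyve1* and *F13a1* were found in 3 of 68 *Disc1* WT/WT cells (4.41%), the 3 highest in *Cd74*, against 6.16% of marker-negative cells of like depth, and in none of the 10 *Disc1* LI/LI cells.

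Neutrophil markers outside the rule had 88 and 35 UMIs, or 156 and 812 CPM, against 159 and 828 CPM in marker-negative microglia, with *Csf3r* (78 UMIs) and *Camp* (11 UMIs) as the most abundant and *Ly6g* at 0 in both. Dendritic cell markers had 407 and 38 UMIs, or 720.1 and 882 CPM against 828 and 808 CPM, most of them *Irf8* (218 and 24), which microglia also express, with *Xcr1*, *Clec9a* and *Ccr7* at 0. B and plasma cell markers had 103 and 16 UMIs, of which *Ighm* had 90 and 9, with *Cd79a* and *Ms4a1* at 0. Oligodendrocyte markers had 39 and 3 UMIs, led by *Cnp* (25) and *Mag* (2), neuron markers 2 and 1, led by *Rbfox3* and *Syp* at 1 UMI each, and hemoglobin genes 2 and 1, led by Hbb-bs. Astrocyte markers had 139 and 5 UMIs, all of *Slc1a3*, with the other 9 genes at 0. Endothelial markers had 302 and 33 UMIs, of which *Bsg* had 293 and 33, with *Cldn5* and *Cdh5* at 0. Few genes of these lists could be called, since 1 macrophage, 2 dendritic cell, 4 neutrophil, 2 B cell, 1 astrocyte and 1 endothelial gene reached the mean of 50 CPM and none of the other lists did. None of them was called, against 0.251% of all genes called higher. The part that transcripts of other cells have in the ratios above was not tested.

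Between the genotypes, the marker-positive cells themselves were compared as 10 against 68 cells with 43106 and 565187 UMIs. Over 5309 genes with at least 10 UMIs in the cells of both libraries together, the median log2 ratio of *Disc1* LI/LI over *Disc1* WT/WT was -0.00, and 1495 genes had no UMI in *Disc1* LI/LI. In marker-negative microglia, the median of the same genes was -0.14. The disease-associated genes had a median of -0.07 for stage 1 (3 genes above 0, 6 below) and 0.11 for stage 2 (9 above, 5 below). In marker-negative microglia these medians were 0.19 and 0.14. The stage 2 medians are over 14 of 19 genes in marker-positive cells and 18 in marker-negative microglia. Because 5 stage 2 genes had no UMI in the *Disc1* LI/LI marker-positive cells, this median is not read against the background of all genes. Homeostatic genes had -0.32, against -0.30 in marker-negative microglia. Immediate early genes had -1.22 (1 above, 12 below), against 0.53, and MHC class II presentation genes -1.53 (2 above, 6 below), against 0.25. *Cd83* (0.39) was 1 of these 2 above 0. Chemokine and cytokine genes had -0.61 (4 above, 9 below), against 0.16. The medians of these 3 lists are not over the same genes, with 13, 8 and 13 genes in marker-positive cells and 20, 9 and 21 in marker-negative microglia. For *Apoe* the ratio was -1.52, against -0.45 (-0.51 to -0.40) in marker-negative microglia. For MHC class II, most of the *Disc1* WT/WT UMIs came from 3 cells.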

How the data were processed

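CD45low CD11b+ brain cells of 6 pooled mice per genotype were measured as 1 droplet library each. The deposited files hold counts, as whole numbers of UMIs for 32285 genes in each barcode, without normalization by the authors. The submitters' processing notes name Cell Ranger 6.1.2, STAR, Seurat 3.0.1 and mm10. From these counts, the selected cells were summed per class and scaled to 1000000 UMIs, with 33601957 UMIs in the *Disc1* WT/WT and 47731571 in the *Disc1* LI/LI library. Log2 ratios have Clopper-Pearson intervals, and a class at 0 UMIs was set to 3 UMIs over the class. No doublet caller was run. The members and gene lists were chosen with earlier results of these data known. Genes named are those of the rule, the 15 highest and 10 lowest by the smaller ratio of both libraries, up to 4 most abundant or called genes per list and genes the study names, while *Lyz2*, *Il1b*, *Fos*, *Malat1* and other genes given as examples were chosen after their values were seen. Simulated data with no change, for marker-positive over marker-negative microglia, gave 0 calls in 3062 genes. These sums were drawn from marker-negative profiles with counting error only. They held no differences between cells and no selection by markers, so they check the computation and do not show whether the calls made here exceed chance. Python 3.11.15, scipy 1.17.1, numpy 2.4.6, pandas 2.3.3, matplotlib 3.10.9, R 4.3.3 and edgeR 4.0.16 (TMM only) were used. Alternatives covered cell filters, limits, marker genes, depth, scaling and single cells.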

Additional observations from a re-analysis of the deposited data

Results flagged for a closer look

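Among the summed lists and the genes chosen by rule, the immediate early list and 4 genes had a ratio of marker-positive over marker-negative microglia on opposite sides of 0 in the 2 libraries, each with a counting interval that excluded 0 on its side. The summed level of immediate early genes had a log2 ratio of 0.35 in *Disc1* WT/WT, against -0.98 in *Disc1* LI/LI. Among single genes, *Junb* had 0.48 and -1.32, *Btg2*, an antiproliferative immediate early gene, 0.22 and -1.25, *Actr3* 0.33 and -1.54, and *Sparc*, a secreted matrix protein gene, -0.20 and 0.19. The same was so for *Fos*, with 1.65 and -2.62, the latter from 1 UMI, for *H2-Aa*, with 2.77 and, from no UMI, an upper limit of -0.54, and for *Cst3*, with -0.21 and 0.26, which were chosen after their values were seen. Under TMM scaling the *Disc1* LI/LI ratio of *Sparc* was -0.04, on the same side as in *Disc1* WT/WT. The *Disc1* WT/WT ratios of *Junb*, *Btg2* and *Fos* were -0.97, -0.34 and -0.30 without cells with 2 genes of another cell type's list, and that of *Actr3* was -0.13 at 3000 UMIs. These differences were not tested, since there is 1 library per genotype, and the *Disc1* LI/LI values rest on 9, 8, 4 and 227 UMIs of *Junb*, *Btg2*, *Actr3* and *Sparc* in 10 cells.

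Cells below both limits had at least 2 of the 5 marker genes more often than microglia did. The share was 5.05% of 733 cells in *Disc1* WT/WT, against 3.50% of 2199 cells in *Disc1* LI/LI. The positive cells among them were deep, with median UMIs of 11052 and 14458.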

How the results depend on the processing

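The share of marker-positive microglia depended on the limits and on depth. In *Disc1* WT/WT it was 0.439% with at least 1% microglia transcripts, 0.194% with at least 3 marker genes, 0.437% without *Cst7* as a marker, 0.583% without *Lpl*, 0.631% without *Itgax*, 0.801% without the 5% deepest cells, 0.796% without cells with 2 genes of another cell type's list, and 0.458% and 0.0329% with cells thinned to 3000 and 1000 UMIs. In *Disc1* LI/LI it was 0% with at least 3 marker genes and at 1000 UMIs, which left no cells to compare, 0.0513% without *Cst7*, and 0.308% both without *Lpl* and without *Spp1*, which left 6 cells each.

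The counts of genes called higher and lower, 8 and 1, were 14 and 6 with at least 1% microglia transcripts, 22 and 5 without *Lpl*, 13 and 8 without the 5% deepest cells, 71 and 2 without cells with 2 genes of another list (which left 14 and 1 marker-positive cells), 68 and 17 at 3000 UMIs, 17 and 6 as the mean of the cells' CPM, 21 and 2 from 20 CPM, 5 and 0 from 100 CPM, 37 and 39 at a log2 ratio of 0.58, 30 and 4 in *Disc1* WT/WT alone, and 0 and 4 without each gene's top cell. The count called lower was also 0 without *Cst7*, without *Spp1* and without cells with 2 macrophage genes or 10 *Cd74* UMIs, and 2 without *Itgax* and with comparison cells weighted by depth. Without *Spp1* as a marker, *Fxyd5* had -0.56 in *Disc1* LI/LI.

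In *Disc1* WT/WT the list medians over genes with at least 10 UMIs kept their sign in all 22 alternatives for stage 1 (0.32 to 0.96), stage 2 (0.61 to 1.70), homeostatic genes (-0.65 to -0.14) and MHC class II (0.09 to 4.90). Single genes of the last list did not all do so. Over all values computed, 64 of 136 single genes and 14 of 27 lists kept their sign in every alternative in *Disc1* WT/WT, against 52 of 114 and 7 of 27 in the *Disc1* LI/LI library. For immediate early genes the medians ranged from -0.50, without cells with 2 genes of another list, to 3.40. The 3000 UMIs, the macrophage or *Cd74* cells, *Disc1* WT/WT alone and the 2 Spp1-high cells left out were alternatives chosen after seeing the data. No paired analysis was possible because each genotype has 1 library. The 10 *Disc1* LI/LI cells with 43106 UMIs limit most statements about that genotype.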
